A study of Mus musculus with 19 samples.

Results

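The 10 genes Fos, Fosb, Jun, Junb, Jund, Egr1, Atf3, Ier2, Dusp1 and Zfp36, which belong to the immediate early response, were followed across liver tumours of mice. These 10 genes, of 39179 in the count table, were chosen from measured values of the same tumours, in which Fos had varied more than nearly all other genes. Their levels and their spread are therefore given as a description, without a test. The tumours arose in male mice that carried Ctnnb1tm1Mmt in heterozygous form, a β-catenin allele that Cre recombinase turns into a stabilised form, and Gt(ROSA)26Sortm1(MYC)Djmy in homozygous form, a MYC transgene that Cre switches on. Every mouse had received AAV8.TBG.PI.Cre.rBG at 640000000 GC per mouse, a virus in which the hepatocyte-specific TBG promoter drives Cre. According to the study's methods the mice were of mixed background and the tumours were taken at clinical end point. Of 13 tumours in the series, 10 could be tied to a count column by their number and are called tumours 04 to 13. The match rests on reading the number in a sample title as that of its library, an assumption. The tumours form a single group, since the control columns were not tied to samples. No control liver enters any value here.

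Immediate early genes are switched on within minutes of a stimulus, without new protein synthesis, by transcription factors that already sit in the cell. Growth factors, cytokines, stress and the handling of tissue all induce them, and most of their mRNAs are short-lived. FOS and JUN proteins pair to form AP-1, which binds DNA at its own motif. In liver the genes are known for their surge after partial hepatectomy, and Jun for its part in hepatocyte proliferation and in liver tumours of mice. DUSP1 and ZFP36 act as brakes, the former on MAP kinases and the latter on unstable mRNAs.

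The column names also hold a tag whose meaning the labels do not give. Tag RMH4_5b was carried by tumour 04, RMH4_5c by tumours 05 and 06, RMH18_1d by tumours 07 and 08, RMH35_1b by tumours 09 and 10, and RMH35_1c by tumours 11, 12 and 13. Each tumour is 1 library, so that a p-value measures only the spread between these libraries, and tumours with 1 tag may share an animal. Gene counts per library ranged from 11687034 to 36964427 with a median of 16664597, so that 3 counts corresponded to between 0.0812 and 0.257 CPM (counts per 1000000 counts, after scaling by composition). Hepatocyte markers were at hand in every tumour, with a summed level of 34371 to 56029 CPM over 8 genes, and no defining marker of that list was at 0. Lymphocyte markers summed to at most 6.37 CPM. The libraries were made from whole tumour, in which fewer cells of a type and less RNA per cell cannot be told apart.

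Short stretches of the promoters of 7 of these genes are shown because they hold the letters of the motifs through which such genes are commonly switched on. The sequences are from RefSeq (GRCm38.p6), which held a promoter for 8 of the 10 genes, and run 5′ to 3′ on the strand of the gene. Capitals mark the CRE core in Fos, Fosb and Junb, the CRE or its closest match in Dusp1, Atf3 and Jun, and the CArG box in Zfp36. The CRE is the site of CREB and ATF factors, and the CArG box that of serum response factor.
Fos: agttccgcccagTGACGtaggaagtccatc
Fosb: tggagttgcgggTGACGcaagcgcgggggc
Junb: gcttcctgacagTGACGcgagccgcctcct
Dusp1: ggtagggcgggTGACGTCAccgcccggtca
Atf3: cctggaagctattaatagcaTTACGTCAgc
Jun: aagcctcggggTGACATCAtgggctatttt
Zfp36: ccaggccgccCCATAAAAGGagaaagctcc

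The stretches lie at chr12:85473812-85473841 on the plus strand for Fos, and on the minus strand at chr7:19310088-19310117 for Fosb, chr8:84978837-84978866 for Junb, chr17:26508597-26508626 for Dusp1, chr1:191183334-191183363 for Atf3, chr4:95052249-95052278 for Jun and chr7:28379267-28379296 for Zfp36. All but that of Fosb lie upstream of the annotated gene. The table places the start of Fosb inside the annotated gene (chromosome 7, 19302696 to 19310118), so that its stretch lies within the gene, upstream of that start. Over the 250 bases before the start, on both strands, the whole CRE (TGACGTCA) was found in Dusp1 alone of the 8 genes. It was found in 1.55% of all 32851 promoters used, which leave out chromosome 18. With 1 mismatch allowed it was found in Fos, Jun, Atf3 and Dusp1, against 10.6% of all promoters. The CRE core (TGACG), which overlaps every whole CRE, was found in 5 of the 8 genes (Fos, Fosb, Junb, Atf3 and Dusp1), against 17.8%. The CArG box was found in Zfp36 alone, against 1.47%, and with 1 mismatch also in Fos and Atf3, against 18.6%. The EGR motif (GCGGGGGCG or GCGTGGGCG) was found in Fosb and Zfp36, against 3.06%. The AP-1 motif (TGAGTCA or TGACTCA) was found in none of the 8 genes, against 4.46%. A match is a description of letters in this window. Sites farther upstream, and the promoters of Egr1 and Ier2, were not searched, so that a motif not found here may still lie outside the window.

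Fos, which encodes the founding FOS protein of AP-1 (ENSMUSG00000021250, chromosome 12, 85473890 to 85477274 in GRCm38.p6), differed between tumours more than any other of the 10 genes. It was at 190 CPM in tumour 06, 111 CPM in tumour 07, 92.4 CPM in tumour 05 and 65.5 CPM in tumour 09. In the other tumours it was at 11.9 CPM in tumour 08, 6.74 CPM in tumour 04, 3.66 CPM in tumour 11, 2.58 CPM in tumour 13, 1.48 CPM in tumour 10 and 1.22 CPM in tumour 12. The 10 tumours thus fell into a set of 4 with high Fos and a set of 6 with low Fos, with a gap of 2.45 log2 units between them where the next largest gap was 0.86.

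The Fos counts behind these levels ranged from 31 in tumour 10 to 3128 in tumour 06. Exact 95% Poisson intervals, which cover counting error only, did not overlap between neighbours in the order from tumour 06 (183 to 197 CPM) down to tumour 11 (2.78 to 4.73 CPM). Those of tumours 11 and 13 (2.10 to 3.14 CPM) overlapped, as did those of tumours 10 (1.01 to 2.10 CPM) and 12 (0.856 to 1.68 CPM). From lowest to highest tumour Fos spanned 144-fold on the log2 CPM scale with a prior count of 2, and its SD over tumours was 2.74 log2 units. Without tumour 06 the span was 84.8-fold.

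**Figure D1:**
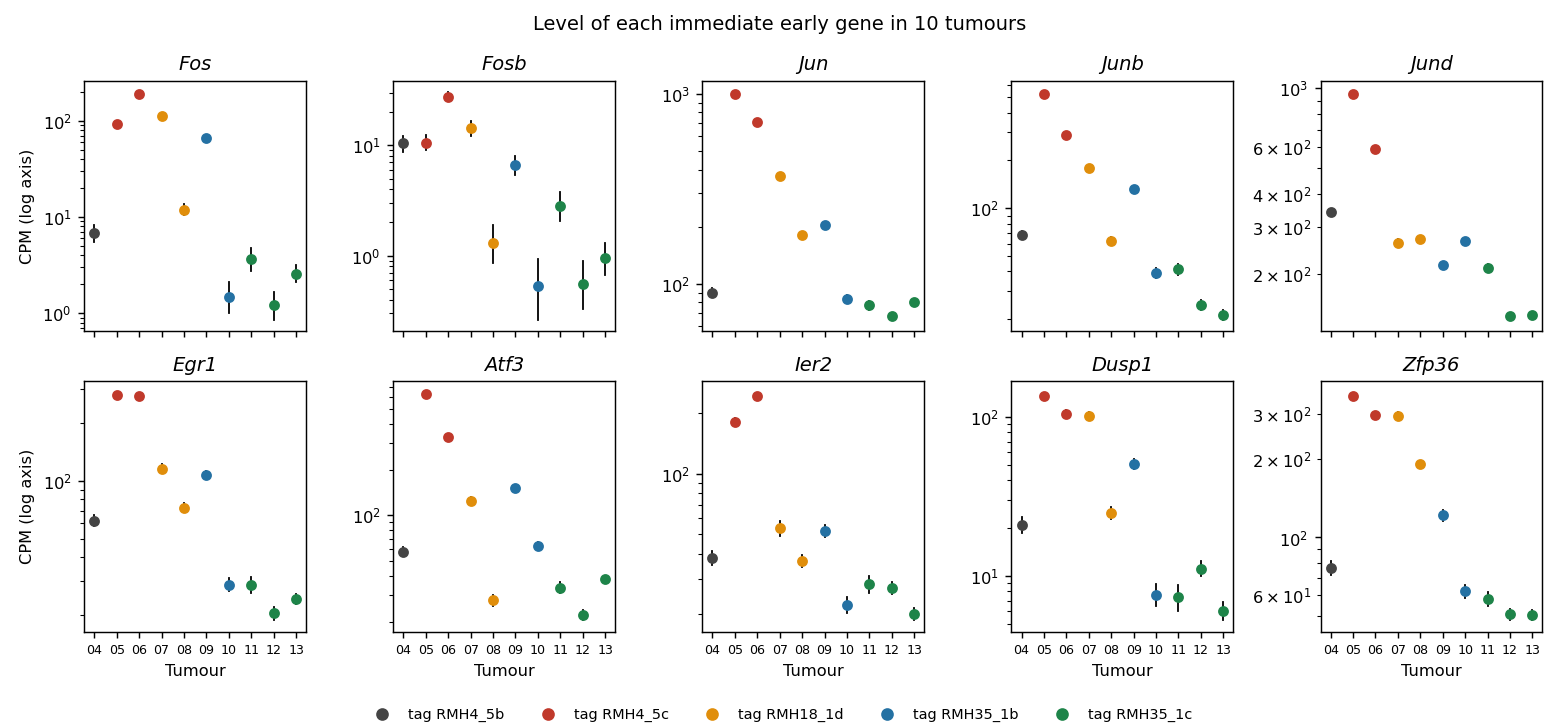
Level of each of the 10 immediate early genes (CPM, log axis) in tumours 04 to 13, with points coloured by the tag in the column name and bars for the exact 95% Poisson interval of the count. Tumours 05, 06, 07 and 09 are the 4 highest for Fos, Jun, Junb, Egr1, Atf3, Ier2 and Dusp1, while Jund spans only 6.86-fold.

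Fosb (ENSMUSG00000003545), the nearest relative of Fos, was the scarcest of the 10 genes and the only one whose counts were too low for the filter of the tests. It was highest in tumour 06 at 27.5 CPM, followed by tumour 07 at 14.2 CPM. Tumours 05 (10.6 CPM) and 04 (10.4 CPM) were next, with overlapping counting intervals, so that Fosb in tumour 04 stood at the level of a tumour with much higher Fos. It was at 6.60 CPM in tumour 09, at 2.84 CPM in tumour 11 and at or below 1.30 CPM in tumours 08, 10, 12 and 13, where it rested on 11 to 37 counts. Fosb spanned 44.1-fold with an SD of 1.99 log2 units, and 23.0-fold without tumour 06.

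The make-up of the FOS family was compared per kb of transcript, with Fosl1 and Fosl2, the FRA-1 and FRA-2 genes, beside Fos and Fosb. The 4 genes summed to 113, 81.9, 65.5 and 47.6 CPM per kb in tumours 06, 05, 07 and 09, and to between 3.31 and 15.2 CPM per kb in the other 6. Fos led the family in tumours 05, 06, 07 and 09, with 53.4% to 80.4% of the sum. Fosl2 led in the other 6, with 43.4% to 74.6%, where Fos made up 8.59% to 41.1%. Fosl2 itself was highest in tumour 05 at 32.9 CPM per kb and lay between 2.07 and 12.1 CPM per kb in all others, so that its range was narrower than that of Fos (0.575 to 89.8 CPM per kb).

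**Figure D2:**
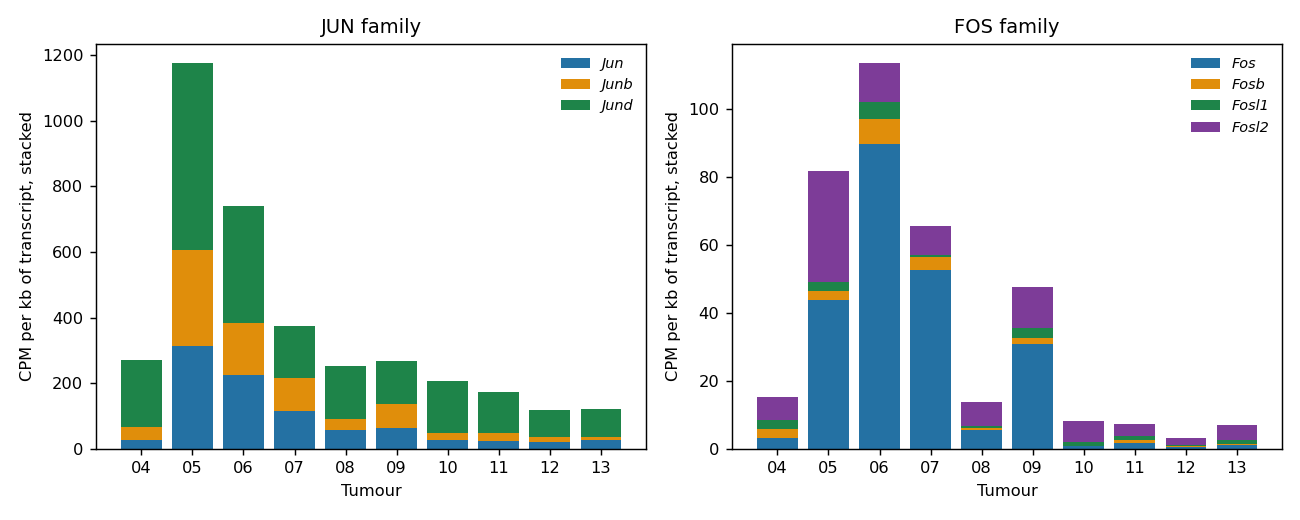
Levels of the JUN family (left) and the FOS family (right) in tumours 04 to 13, as stacked bars of CPM per kb of transcript. Jund is the largest part of the JUN bars in all 10 tumours, while Fos leads the FOS bars in tumours 05, 06, 07 and 09 and Fosl2 leads in the other 6.

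Among the JUN proteins, the partners with which FOS proteins must pair, Jun (ENSMUSG00000052684) spanned 14.8-fold. It was at 1004 CPM in tumour 05, 713 CPM in tumour 06, 372 CPM in tumour 07, 203 CPM in tumour 09 and 181 CPM in tumour 08, and between 67.6 and 90.0 CPM in the other 5 tumours. Junb (ENSMUSG00000052837), often seen as the JUN protein that restrains growth, was at 525 CPM in tumour 05, 289 CPM in tumour 06, 180 CPM in tumour 07 and 133 CPM in tumour 09. In the remaining 6 tumours Junb ranged from 21.3 CPM in tumour 13 to 68.0 CPM in tumour 04. Its span was 24.5-fold, and 13.5-fold without tumour 05.

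Jund (ENSMUSG00000071076), the member of the family that resting cells express, varied least of the 10 genes. It was at 951 CPM in tumour 05, 592 CPM in tumour 06 and 342 CPM in tumour 04, and between 138 and 270 CPM in the other 7, a span of 6.86-fold with an SD of 0.86 log2 units. Without tumour 05 the span was 4.28-fold. Tumours 07 and 09, which were among the 4 highest for Fos, stood sixth and seventh for Jund with 262 and 215 CPM.

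Per kb of transcript Jund led the JUN family in every tumour, from 42.1% of the family sum in tumour 07 to 76.9% in tumour 10. The share of Junb was 27.6% in tumour 09, 26.6% in tumour 07, 24.7% in tumour 05 and 21.6% in tumour 06, and at most 13.9% elsewhere. Jun made up 10.4% of the sum in tumour 04 and 31.3% in tumour 07. The family sum was 1175 CPM per kb in tumour 05 and 118 CPM per kb in tumour 12, many times the FOS family sum in each (81.9 and 3.31 CPM per kb).

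Egr1 (ENSMUSG00000038418), a zinc finger transcription factor that responds to the same kinases as Fos, spanned 13.6-fold. It was level in tumours 05 (279 CPM) and 06 (277 CPM), lower in tumours 07 (115 CPM) and 09 (107 CPM), and at 72.5 CPM in tumour 08 and 62.0 CPM in tumour 04. Tumours 10 to 13 lay between 20.3 and 28.8 CPM. The tumours thus formed 3 steps for Egr1.

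Ier2 (ENSMUSG00000053560), a small nuclear protein of the same response, separated tumours 05 and 06 from the rest. It was at 245 CPM in tumour 06 and 182 CPM in tumour 05, while the next tumour, 07, was at 53.5 CPM and the lowest, 13, at 20.1 CPM. The gap below tumour 05 was 1.76 log2 units, against 0.45 for the next largest gap. Its SD was 1.23 log2 units, and 0.96 without tumour 06.

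Atf3 (ENSMUSG00000026628), a stress-induced factor that also pairs with JUN, was at 628 CPM in tumour 05, 330 CPM in tumour 06, 152 CPM in tumour 09 and 125 CPM in tumour 07. It followed Fos less closely in the remaining 6 tumours. Tumour 08, the highest of those for Fos, had the second lowest Atf3 (27.7 CPM), and tumour 10, nearly the lowest for Fos, had the highest Atf3 among them (63.0 CPM). Atf3 spanned 28.3-fold, and 14.9-fold without tumour 05.

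The brakes of the response varied between the same tumours. Dusp1 (ENSMUSG00000024190), the phosphatase that inactivates p38, JNK and ERK, was at 136 CPM in tumour 05, 105 CPM in tumour 06, 101 CPM in tumour 07 and 50.7 CPM in tumour 09. It was at 24.9 CPM in tumour 08 and 21.0 CPM in tumour 04, and between 6.01 and 11.1 CPM in tumours 10 to 13, a span of 22.3-fold. Zfp36 (ENSMUSG00000044786), which encodes tristetraprolin and binds AU-rich elements of mRNAs, was at 351, 295 and 293 CPM in tumours 05, 06 and 07. Tumour 08 followed with 192 CPM, ahead of tumour 09 with 122 CPM, and the other 5 lay between 50.3 and 76.4 CPM. Its span of 6.97-fold was close to that of Jund.

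Compared per length, the median level over tumours was highest for Jund (158 CPM per kb) and lowest for Fosb (1.25 CPM per kb). Fos, at 4.42 CPM per kb, was the second lowest. Whether counting used the strand is not given in the sources used here, so that reads of antisense or overlapping transcripts, such as Junos at Jun and Prdx2 at Junb, may have been counted for a gene or lost as ambiguous. Ambiguous reads made up 1.16% to 1.66% of the entries per library.

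The spread of the genes was set beside that of all genes. The 9 genes that passed the filter on low counts included 8 with an SD over 1 log2 unit, all but Jund, and 645 of the 12462 genes tested had such an SD (5.18%). These values chose the genes and nothing is read from their number. Fos ranked 6 of 12462 by SD, Dusp1 67, Atf3 96 and Junb 116. Jun ranked 169, Egr1 181, Ier2 307, Zfp36 412 and Jund 979, with the threshold of 1 falling between Zfp36 (SD 1.14) and Jund (SD 0.86). The median SD of all genes tested was 0.33 log2 units.

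**Figure D3:**
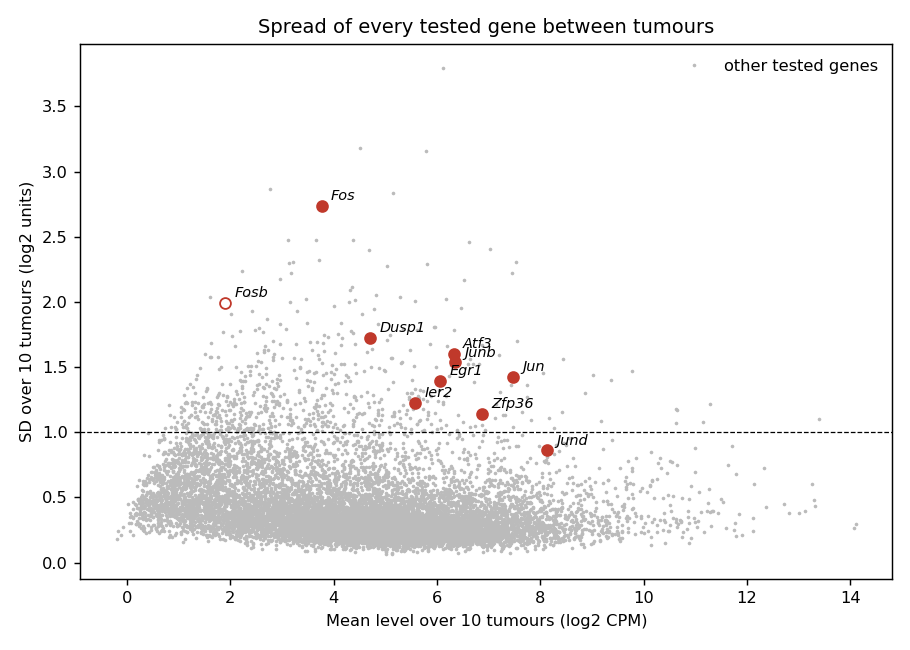
SD over the 10 tumours (log2 units) against the mean level (log2 CPM) for all 12462 genes tested, with the immediate early genes in red and the dashed line at an SD of 1. Fosb is drawn open because it did not pass the filter, and only Jund lies below the line.

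The same tumours led most of these genes. Tumours 05, 06, 07 and 09 were the 4 highest for 7 of the 10 genes (Fos, Jun, Junb, Egr1, Atf3, Ier2 and Dusp1), a set of 4 that 1.73% of all genes tested had. The set is that of Fos, which is in the 7 by construction, and the genes were chosen from values of these tumours, so that nothing is read from their number. For Zfp36 tumour 08 took the place of tumour 09, and for Fosb tumour 04 did. For Jund only tumours 05 and 06 of that set were among the 4 highest. The order within the set differed between genes, as tumour 05 was highest for 7 of the 10 genes and tumour 06 for Fos, Fosb and Ier2.

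In 2 of the tags, tumours with the same tag differed widely in Fos. Fos in tumour 07 (111 CPM) was 9.33-fold above that in tumour 08 (11.9 CPM), and in tumour 09 (65.5 CPM) it was 44.2-fold above that in tumour 10 (1.48 CPM). Fosb differed in the same direction by 10.9-fold and 12.6-fold. Of the 10 genes, 9 were higher in tumour 07 than in tumour 08 and 9 were higher in tumour 09 than in tumour 10, with Jund the exception in each pair at 0.971-fold and 0.810-fold.

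The size of the difference within a pair varied between genes. Between tumours 07 and 08, 3 of the 9 tested genes (Fos, Atf3 and Dusp1) differed by 4-fold or more, which 1.13% of all genes did in that direction. Between tumours 09 and 10, Fos and Dusp1 did so, against 2.91% of all genes. Jun differed by 2.05-fold and 2.44-fold, Zfp36 by 1.53-fold and 1.96-fold and Ier2 by 1.45-fold and 2.35-fold in the 2 pairs. With 1 library per tumour these differences have no replicate.

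Between tumours 05 and 06, which carry the same tag and had high levels of all 10 genes, Fos and Fosb were lower in tumour 05, at 0.487-fold and 0.385-fold, and Ier2 was at 0.742-fold, while Atf3 was at 1.90-fold and Junb at 1.81-fold. Among the tumours of tag RMH35_1c, 9 of the 10 genes were lower in tumour 12 than in tumour 11, with a median of 0.684-fold, 8 were lower in tumour 13 than in tumour 11, with a median of 0.767-fold, and 6 were higher in tumour 13 than in tumour 12, with a median of 1.10-fold. In these 4 pairs a single difference reached 4-fold, that of Fosb, which was at 0.197-fold in tumour 12 relative to tumour 11, on 17 and 45 counts. Of all genes tested 1.28% were at least 4-fold lower in tumour 12 than in tumour 11, and 0.177% to 1.16% differed as much in the other directions of these pairs.

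**Figure D4:**
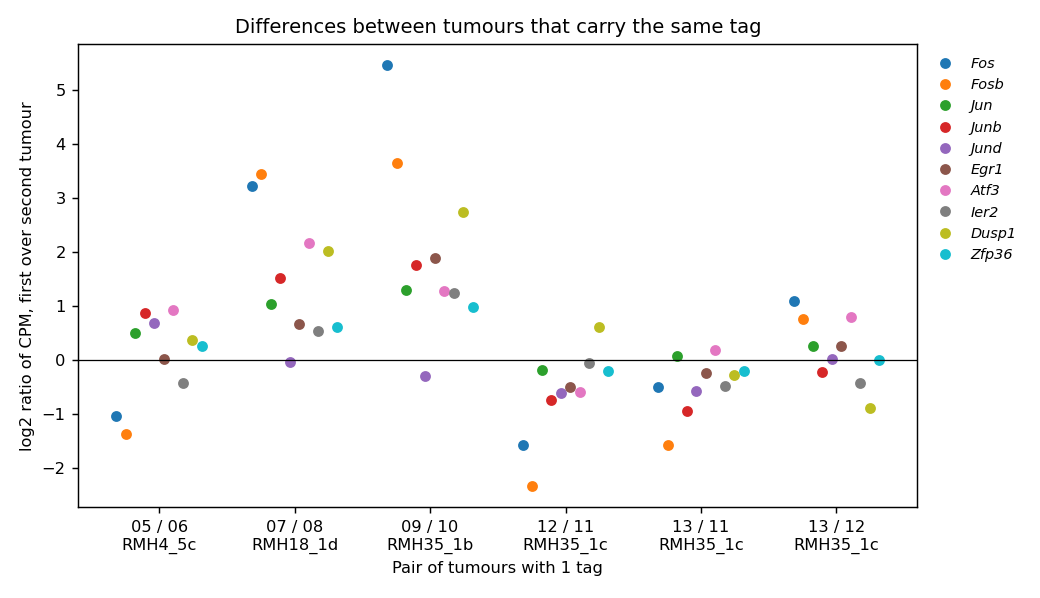
log2 ratio of CPM between tumours that carry the same tag, for each of the 10 genes, with the tag under each pair. Fos and Fosb lie farthest from 0 in the pairs 07 over 08 and 09 over 10, and Jund lies just below 0 in both.

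Whether tumours with the same tag had closer levels than tumours with different tags was tested for all 12462 genes with the quasi-likelihood F test of edgeR, adjusted by Benjamini-Hochberg. The list was not chosen on tags, but it was chosen from the same libraries, so that these p-values are not independent of that choice. Of the 9 genes tested 4 passed an adjusted p of 0.05, where 62 of all genes did (0.498%). Zfp36 had an adjusted p of 0.0242, Ier2 of 0.0258, Jun of 0.0327 and Jund of 0.0417. The tag RMH4_5c had the highest mean and RMH35_1c the lowest for each of the 10 genes. Both libraries of RMH4_5c, like that of tumour 07, were also high in RNAs that lack a poly(A) tail, as given below. The part of that in the tag means was not tested.

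The 4 genes that passed were those with the least spread within tags. Jund had an SD within tags of 0.32 log2 units and tag means 2.23 log2 units apart. Zfp36 had an SD within tags of 0.38 and tag means 2.60 apart, Ier2 0.48 and 3.08, and Jun 0.55 and 3.50. Fos had the widest tag means, 5.81 log2 units apart, but an SD within tags of 2.07, and an adjusted p of 0.329 by edgeR. Egr1 (adjusted p = 0.0797), Atf3 (0.125), Junb (0.135) and Dusp1 (0.236) did not pass in the edgeR test either.

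These calls rested on few tumours. Without tumour 05, 06, 11, 12 or 13 none of the genes passed, with 7 or 8 of the 9 at an unadjusted p under 0.05 in the edgeR test. In those fits 2, 54, 0, 19 and 2 of all genes passed, in that order, and 1069 to 1569 had an unadjusted p under 0.05. Without tumour 07 or 08 Jund did not pass. Without tumour 09 or 10 Egr1 passed as well, with an adjusted p of 0.00634 or 0.00725 in edgeR. The likelihood ratio test of DESeq2 called all 9 genes and 1207 of all genes (9.69%), and with the tags joined into 3 families by their first part edgeR called none of the 9 and none of all genes, with 8 and 1698 at an unadjusted p under 0.05.

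Outside the 10 genes, 3074 genes passed the filter with an SD over 0.5 log2 units, and those most like Fos were sought among them. The 8 with the highest Pearson r with Fos over the 10 tumours were Klf2, Socs3, Rgs2, Ccn1, Cdh3, Hic1, Btg2 and Atp8b2, with r from 0.922 to 0.943. All 8 had tumours 05, 06, 07 and 09 as their 4 highest. Since the tumours fell into 2 sets for Fos, r follows mainly the gap between them, and the points share the depth and makeup of their libraries. Over the 6 tumours with low Fos, r was 0.897 for Rgs2, an inhibitor of G protein signalling, and 0.875 for Socs3, the feedback inhibitor of STAT3 signalling, but 0.351 for Ccn1, a secreted matrix protein.

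The levels of these genes also differed in size. Btg2, an antiproliferative immediate early gene, ranged from 36.4 CPM in tumour 10 to 672 CPM in tumour 05. Socs3 was lowest in tumour 12 (13.7 CPM) and highest in tumour 05 (140 CPM). Ccn1 was lowest in tumour 10 (9.22 CPM) and highest in tumour 06 (134 CPM). Klf2, a transcription factor that endothelial cells express under flow, ranged from 2.71 to 24.8 CPM, and Cdh3, which encodes P-cadherin, from 0.756 to 6.53 CPM. Among the other immediate early genes here, r with Fos ranged from 0.673 for Jund to 0.953 for Dusp1 over 10 tumours, and from 0.00406 for Atf3 to 0.921 for Egr1 over the 6 tumours with low Fos.

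A wider list of immediate early genes held 29 further genes, of which 24 passed the filter and 12 had an SD over 1 log2 unit, beside 5.18% of all genes. The median SD of the 24 was 1.02, against 0.33 for all genes tested, and 7 of them had tumours 05, 06, 07 and 09 as their 4 highest, beside 1.73% of all genes. This list too was drawn up with earlier results of these data known. Klf4, a transcription factor of the response, had the largest SD, 2.00, and was at 167 CPM in tumour 05, 28.5 CPM in tumour 06 and at most 15.9 CPM elsewhere. Btg2 (SD 1.56), Ccn1 (SD 1.49) and Ier3 (SD 1.47) followed. Mcl1, which protects cells from apoptosis, stayed between 134 and 203 CPM with an SD of 0.18, and it is named here after its values were seen. None of the 24 passed the test between tags in edgeR, where 17 had an unadjusted p under 0.05 beside 1832 of all 12462 genes, while DESeq2 called 16 beside 9.69% of all genes.

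Other partners of AP-1 were listed as well. Of 11 genes 7 passed the filter, with a median SD of 0.55. Of those, 3 had an SD over 1, beside 5.18% of all genes: Maff (1.18), Fosl2 (1.09) and Fosl1 (1.02), with Mafk next. Maff, a small MAF protein, was at 217 CPM in tumour 05, 105 CPM in tumour 04 and 13.3 CPM in tumour 12. None of the 7 passed the test between tags in edgeR, where 4 had an unadjusted p under 0.05, and DESeq2 called 4, beside 1832 and 1207 of all genes.

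The kinases and transcription factors that act on the promoters of immediate early genes were set beside all genes, without a test of their spread. None of the 16 of 17 such genes that passed the filter had an SD over 1 log2 unit, as 5.18% of all genes did, and their median SD was 0.28, against 0.33 for all genes. Elk3, a ternary complex factor that endothelial cells also express, had the largest SD (0.91) and was highest in tumour 07 at 22.5 CPM. Srf, the factor that binds the CArG box, ranged from 27.9 to 68.6 CPM and was highest in tumours 06 and 05, and Mrtfb, its coactivator, from 27.9 to 83.6 CPM. Mapk3, which encodes ERK1, ranged from 75.8 to 136 CPM, and Creb1 from 9.27 to 16.4 CPM, both named here after their values were seen. These are mRNA levels and say nothing of phosphorylation.

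Feedback regulators of the ERK pathway had their highest mean levels, over all 13 listed genes, in tumours 09 (3.83 log2 CPM), 05 (3.45), 07 (3.35) and 06 (3.35), against 2.97 or less elsewhere. Their summed levels ran in another order. The sum was 1532 CPM in tumour 05, 983 CPM in tumour 06, 942 CPM in tumour 08 and 595 CPM in tumour 09. Tumours 12 (578 CPM) and 04 (577 CPM) came before tumour 07 (497 CPM). Of 13 genes 9 passed the filter and 3 of those had an SD over 1. Dusp5, a nuclear ERK phosphatase, lay between 0.717 CPM (tumour 10) and 15.3 CPM (tumour 06), Dusp4 was highest in tumour 09 at 15.0 CPM, and Errfi1, an inhibitor of the EGF receptor, was highest in tumour 05 at 1234 CPM. Spry1 was the next of the 9 by SD (0.88). Dusp6, the phosphatase of cytoplasmic ERK, had an SD of 0.38 and is named here after its values were seen. Of 9 early targets of NF-κB that passed the filter, of 14 listed, 2 had an SD over 1, Socs3 (1.15) and Cxcl1 (1.11), followed by Tnfaip3 and Relb. The mean over all 14 genes of that list was highest in tumours 09 (3.45 log2 CPM), 06 (3.09), 05 (2.82) and 07 (2.68), and next in tumour 04 (2.54). By sum the order was tumours 05 (487 CPM), 06 (359 CPM), 04 (282 CPM), 09 (278 CPM), 08 (250 CPM) and 07 (243 CPM).

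**Figure D5:**
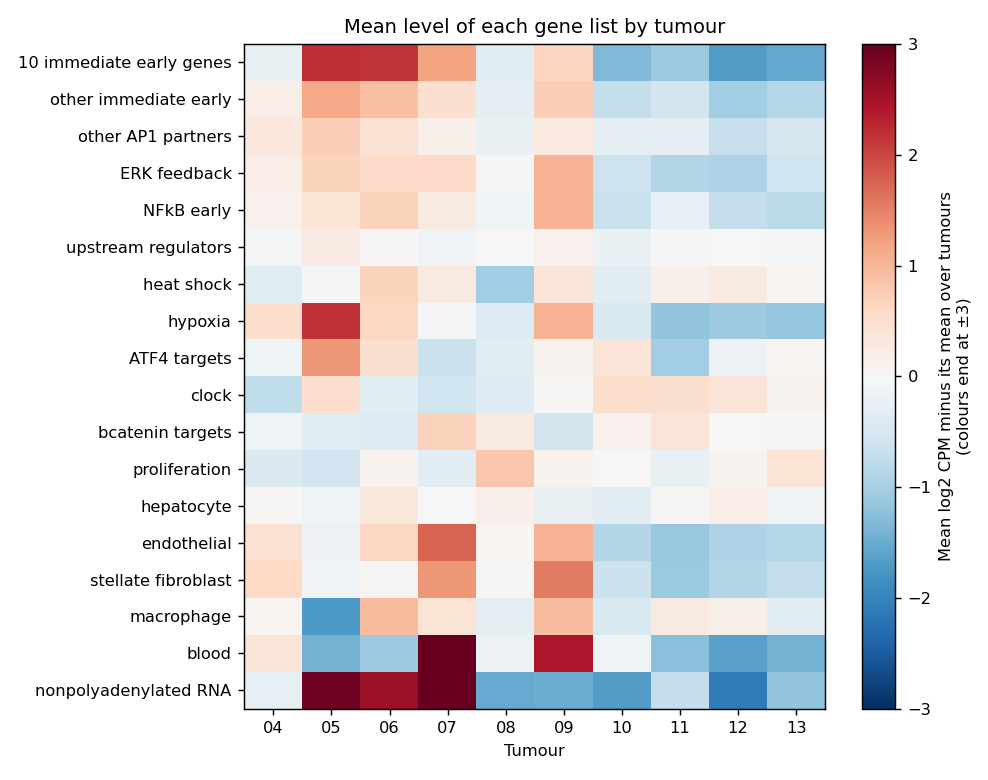
Mean log2 CPM of each gene list in tumours 04 to 13, minus its mean over the tumours, as a colour from blue (lower) to red (higher). The immediate early genes are highest in tumours 05 and 06, hypoxia genes in tumour 05, blood and endothelial genes in tumour 07, and nonpolyadenylated RNAs in tumours 05, 06 and 07.

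Genes of other stress responses were set beside the immediate early genes. The hypoxia list was highest in tumour 05, where its 11 genes summed to 2016 CPM, against 296 to 782 CPM in the other tumours. Of the 9 genes that passed the filter 4 had an SD over 1, Ndufa4l2, Slc2a1, Ankrd37 and Bnip3, each highest in tumour 05. Slc2a1, the glucose transporter GLUT1, was at 334 CPM in tumour 05, 100 CPM in tumour 09, 84.2 CPM in tumour 06 and 19.9 CPM in tumour 07. Of 11 ATF4 targets 7 had an SD over 1, led by Asns, Chac1, Ddit3 and Phgdh. Ddit3, which encodes CHOP, was at 343 CPM in tumour 05 and 126 CPM in tumour 10, but at 30.7 CPM in tumour 07. Tumour 07, with the second highest Fos, had a hypoxia sum of 455 CPM.

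Of the 9 heat shock genes that passed the filter, 1 had an SD over 1, Hspa1b, beside 5.18% of all genes, and their median SD was 0.35. Hspb1, Dnajb1 and Bag3 followed. Hspa1b, which shares reads with the nearly identical Hspa1a and is uncertain for that reason, ranged from 7.73 CPM in tumour 08 to 177 CPM in tumour 06. Clock genes divided the tumours another way. Dbp was between 2.11 and 6.57 CPM in tumours 04 to 08, whose tags begin with RMH4 or RMH18. It was between 23.7 and 104 CPM in tumours 09 to 13, whose tags begin with RMH35. This division and that by the first part of the tag cannot be told apart. Bmal1, which runs in antiphase to Dbp, was between 23.1 and 32.0 CPM in tumours 04 to 08 and between 2.65 and 10.2 CPM in tumours 09 to 13. Of 10 clock genes tested 5 had an SD over 1, with Per3 and Tef also among the largest. The 5 β-catenin targets, led by Lect2, Notum, Lgr5 and Glul, and the 7 proliferation genes, led by Bub1, Mki67, Ccnb1 and Top2a, had none over 1, beside 5.18% of all genes, and median SDs of 0.55 and 0.45. The part of these responses in the levels of the immediate early genes was not tested.

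Markers of other cells also differed between tumours, in part along other lines than Fos. Endothelial markers summed to 445 CPM in tumour 07, 285 CPM in tumour 09, 198 CPM in tumour 04, 193 CPM in tumour 05 and 190 CPM in tumour 06, with 66.3 to 138 CPM in each remaining tumour. Of the 7 that passed the filter 4 had an SD over 1, Cdh5, Pecam1, Lyve1 and Kdr. Stellate cell and fibroblast markers, with Col1a1, Col1a2, Acta2 and Col3a1 the most variable of 8, summed to 1795 CPM in tumour 09 and 1630 CPM in tumour 07. Their sum was 903 CPM in tumour 04, 879 CPM in tumour 05 and 599 CPM in tumour 08. It was 427 CPM in tumour 06, which had the highest Fos.

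Neutrophil markers were scarce, and highest in tumours 06, 09, 05 and 07. The 6 markers summed to 32.2 CPM in tumour 06, 16.6 CPM in tumour 09, 11.0 CPM in tumour 05 and 9.79 CPM in tumour 07, and to at most 4.20 CPM elsewhere. None of the 6 passed the filter, and Ly6g was listed at 0 in 5 tumours. Macrophage markers summed to 512 CPM in tumour 06, 413 CPM in tumour 09 and 388 CPM in tumour 07, the 3 highest sums, and to 190 CPM in tumour 05, with Cd5l, Cd68, Adgre1 and Csf1r the most variable of the 7 that passed the filter and Marco at 0 in tumour 05. Haemoglobin genes and Alas2, the blood list, summed to 6181 CPM in tumour 07 and 1775 CPM in tumour 09 but only to 219 and 278 CPM in tumours 05 and 06. Cholangiocyte markers, of which Krt19 and Spp1 passed the filter, summed to 13.6 to 145 CPM. Among hepatocyte markers Fgb, a fibrinogen chain induced in the acute phase, had an SD of 1.08 and was highest in tumour 06 at 12830 CPM, where Ttr, Apob and Apoa1 had an SD under 0.5. The part of these cells in the levels of the immediate early genes was not tested.

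The libraries of tumours 05, 06 and 07 also stood apart in RNAs that lack a poly(A) tail. Rpph1 and Rmrp together were at 60.1, 47.1 and 83.5 CPM there and at 1.54 to 6.46 CPM in the other 7, tumour 09 included at 2.54 CPM. Without these 3 libraries, a comparison chosen after seeing the data, Fos still spanned 50.4-fold and its SD was 1.96 log2 units. Over the 7 remaining tumours the span was 3.01-fold for Jun, 2.61-fold for Ier2, 2.46-fold for Jund and 6.89-fold for Atf3, and of the 8 tested genes with an SD over 1 only Fos and Dusp1 (SD 1.13) still had one, while the number of all genes with such an SD was 656, against 645 over the 10 tumours. Fosb, which passed the filter over these 7 tumours, had an SD of 1.62. Of the entries per library, those placed at more than 1 site made up 57.9% in tumour 07, the highest, and 45.4% to 53.0% in the others.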

How the data were processed

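RNA from whole liver tumours was sequenced as poly(A) libraries (TruSeq stranded mRNA) by the study. The authors deposited raw read counts per gene, which the submitters' processing notes tie to TopHat2, HTSeq and GRCm38; versions and the strand setting are not given in the sources used here. Of 19 count columns, 10 were matched to tumours by number and 9 were not used. Lines for reads without a gene were left out of library sizes. The members and lists were chosen with earlier results of these data known.

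Counts were filtered with filterByExpr (edgeR 4.0.16, R 4.3.3), scaled by TMM over the 12462 genes kept and given as CPM or log2 CPM with a prior count of 2. CPM per kb used the canonical transcript length in GENCODE M39, which named 34199 of 39179 identifiers. Tags were tested with glmQLFit (robust) and glmQLFTest (5 residual degrees of freedom), with DESeq2 1.42.0 as an alternative, after a check on simulated data. Named genes were the 10 members, up to 4 genes per list with the largest SD, and the 8 most like Fos by Pearson r. Others are marked where named, or are defining markers listed at 0. Tf was read as Trf. Rn7sk and Terc were not matched. Correlations of Fos with list scores were not computed because the tumours fell into 2 sets.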

Additional observations from a re-analysis of the deposited data

Results flagged for a closer look

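The level of each of the 10 genes and the mean of each of the 20 other lists were searched for a tumour that lay far from the other 9 by Dixon's ratio, which divides the gap to the nearest tumour by the whole range. Of 30 measures 1 exceeded its critical value at the 95% level, where chance would give about 1.5. Macrophage markers in tumour 05 had a ratio of 0.478, with a mean of 2.32 log2 CPM against 3.59 in the next lowest tumour. The markers did not all go 1 way. Adgre1, Csf1r, Cd5l and Marco were lowest in tumour 05, while Cd68 was highest there at 68.3 CPM. By sum tumour 05 (190 CPM) lay above tumours 08 (188 CPM) and 10 (167 CPM). The cause of the low mean was not tested. None of the 10 immediate early genes exceeded the value.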

How the results depend on the processing

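Another scaling (DESeq2 size factors, total count), a prior count of 0.5 and thinning to the shallowest library kept the number of tested genes with an SD over 1 at 8 and the number with the 4 highest tumours of Fos at 7. Without any 1 tumour, Fos spanned 84.8-fold to 145-fold with an SD of 2.53 to 2.90, 7 to 8 tested genes and 604 to 714 of all genes had an SD over 1, and the median r with Fos was 0.890 to 0.933. On deviations from the tag means that r was 0.884, and over the 6 tumours with low Fos, chosen after seeing the data, 0.774. Without tumours 05, 06 and 07, also chosen afterwards, 3 genes that passed the filter had an SD over 1, Fos, Dusp1 and Fosb, of which Fosb was not among the 8, and 656 of all genes did, against 645. With no filter 2066 of all genes did. The test between tags depended on its setting: all genes called numbered 1207 with DESeq2, 525 with no filter, 0 over the 3 families and 0 to 204 without any 1 tumour, against 62. The 10 genes called numbered 9 with DESeq2, 0 over the families and 0 to 5 without any 1 tumour, against 4. TMM over all genes, added later, gave 93 genes and the same 4 members. The causes were not tested. No paired analysis was possible because the tumours form 1 group and the control columns were not matched. The planned correlations of Fos with list scores were not run because the tumours fell into 2 sets. Counts of Fosb, 11 in the lowest tumour, limit its folds.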
